A study of Mus musculus with 12 samples.

Results

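The comparison described here set mouse lungs that received both radiation and simvastatin against control lungs. Its members are 6 of the 12 Affymetrix whole-genome mouse arrays of the study: the 3 arrays labelled SIMVA-Radiation, called the combined group below, and the 3 arrays labelled Control. All animals were wild type. Combined animals had a single dose of 25 Gy and simvastatin at 10 mg/kg by intraperitoneal injection, 3 times a week before and after the irradiation, and lungs were taken 6 weeks after it. Control animals had vehicle. The other 6 arrays, 3 after radiation alone and 3 after simvastatin alone, appear only where they help to read the combined values. The labels give an age of 8 to 10 weeks for controls and 8 to 12 weeks for combined animals, so age and treatment cannot be told apart. Strain and irradiated field were not known here. No label ties the arrays of a group to separate animals, and p-values therefore measure the spread between these samples, which may be technical.

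Statins block HMG-CoA reductase, the enzyme that limits the mevalonate pathway, which supplies cholesterol and other isoprenoid lipids. Cells that lack sterol usually raise the genes of that pathway through the transcription factor SREBP2, and endothelial cells given statins in culture are known to raise KLF2 and endothelial nitric oxide synthase. Radiation activates p53, whose target genes stop the cell cycle and promote repair or death, and lungs that receive a high dose can pass through a phase of inflammation and vascular leak into fibrosis. The series title names that leak and inflammation as the question behind the treatment.

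All values are log2 intensities, so a difference of 1 is a 2-fold change. The surfactant gene Sftpc, which marks alveolar type 2 cells, lay between 15.57 and 15.84 on all 12 arrays, and Scgb1a1, which marks club cells, between 15.79 and 16.20. Defining markers of lung were thus present at a high level on every array. Tests covered 11606 genes, each represented by the probe set of highest mean among those above log2 4.845, the median of all values, on at least 3 arrays.

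The labels of 2 of these 6 arrays went against the check genes of radiation. Cdkn1a, which encodes the p53-driven cell cycle inhibitor p21, read 10.25, 10.69 and 13.01 on control 1, 2 and 3 and 13.19, 13.17 and 11.18 on combined 1, 2 and 3. The array labelled control 3 thus lay beside combined 1 and combined 2, and the array labelled combined 3 lay nearer to control 1 and control 2. Eda2r, a death receptor gene that p53 switches on, read 3.54, 3.91 and 7.49 on the controls and 7.67, 7.75 and 4.33 on the combined arrays, in the same order. The difference for Cdkn1a was 1.20 with a two-sided exact permutation p of 0.2, where 3 against 3 arrays cannot go below 0.1. Without control 3 and combined 3 it was 2.71. For Eda2r the difference was 1.60 ± 1.32 (SE) over 6 arrays and 3.98 over 4.

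Combined 3 was also close to 2 arrays of another group. Over 10342 probe sets with a mean above log2 9, the SD of its log2 differences from simvastatin 1 and from simvastatin 3, and of theirs from each other, lay between 0.111 and 0.118. The other 63 pairs of arrays gave 0.336 to 1.02. Among them, control 3 was nearest to radiation 1, at 0.427, and lay at 0.974 from control 1 and 0.72 from control 2. Simvastatin 1 and simvastatin 3 were counted as 1 sample, while combined 3 kept its own label. The labels are followed throughout. Values are given with all 6 arrays and, for most lists and several genes, also without control 3 and combined 3, on 2 against 2 arrays. The plots of leading genes and of gene lists show both readings. Those arrays were singled out by p53 target genes, so genes that share that order had to differ more without them. With combined 3 so close to arrays of the simvastatin group, any resemblance of the combined group to that group rests in part on it. The simvastatin group was itself split. Simvastatin 2 read 13.36 for Cdkn1a and 8.285 for Eda2r, within the radiation arrays (13.12 to 13.42 and 8.024 to 8.435). Simvastatin 1 and simvastatin 3 read 11.09 and 11.11 for Cdkn1a and 4.149 and 4.749 for Eda2r. Differences that use the simvastatin group carry this split, and its part in them was not tested.

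**Figure D1:**
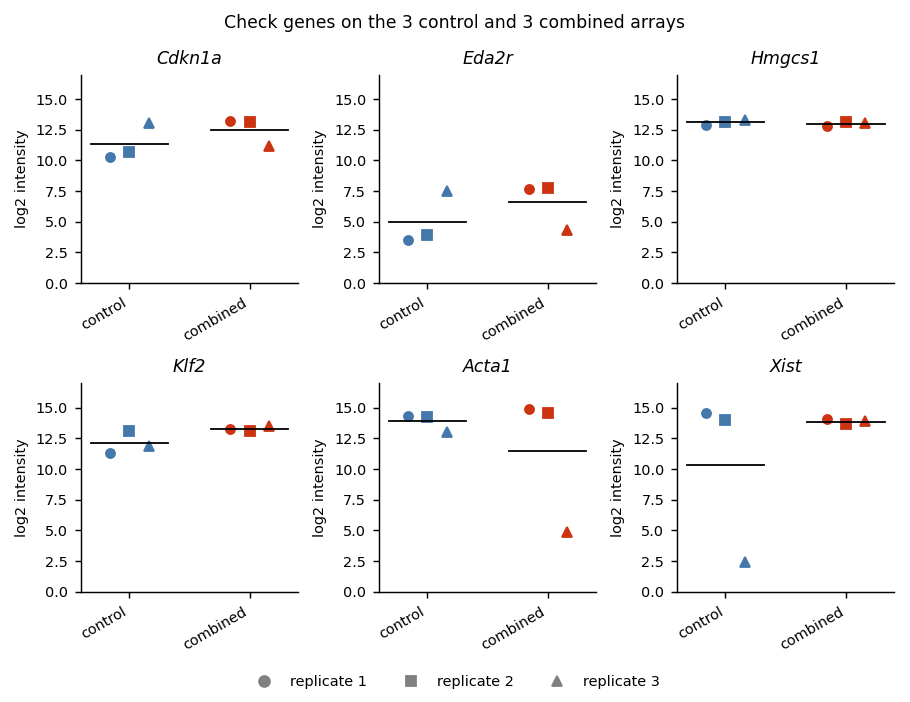
Log2 intensity of 6 check genes on the 3 control arrays (blue) and 3 combined arrays (red), 1 panel per gene, with symbols for the replicate number and a line at each group mean. Control 3 shares the high Cdkn1a and Eda2r values of combined 1 and combined 2, combined 3 has low values, and Acta1 and Xist each have 1 array far from the other 5.

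By limma with Benjamini-Hochberg adjustment, 0 of 11606 genes passed the threshold of 0.05 (0%), and the lowest adjusted p was 0.995. At an unadjusted p under 0.05 stood 327 genes, 151 higher and 176 lower in the combined group. On all 3 combined arrays 310 genes (2.67% of those tested) lay above every control array and 449 (3.87%) lay below every control array. Among them, 62 genes were more than 2-fold higher and 21 more than 2-fold lower. Over all genes tested, 50.5% of the differences were above 0 and their median was 0.004. Without control 3 and combined 3, 57.0% were above 0 and the median was 0.07. No gene is therefore described as changed, and the values that follow are differences of group means with their standard errors (SE). Where a list below has members free of overlap, the shares over all genes remain 2.67% above and 3.87% below.

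The 10 genes of lowest p among those higher on every combined array included several of antibody-producing cells. Mzb1 (probe set 1428947_at) encodes a chaperone-associated protein of the endoplasmic reticulum that helps B and plasma cells assemble and secrete antibody. It read 7.75, 7.0 and 7.15 on the controls and 9.39, 9.54 and 8.35 on the combined arrays. The difference was 1.79 ± 0.44, and it was 2.09 without control 3 and combined 3. Ell2, an RNA polymerase elongation factor that plasma cells use to make secreted immunoglobulin transcripts, read 11.11, 11.39 and 11.79 against 12.18, 12.27 and 11.97, a difference of 0.71 ± 0.18. The lambda light chain gene Iglv1 read 9.96, 7.26 and 5.90 on the controls and 11.40, 11.83 and 10.55 on the combined arrays, and differed by 3.55 ± 0.94. Ighg3, an IgG heavy chain gene, read 5.99, 4.40 and 6.02 against 11.49, 12.07 and 6.76, so that its difference of 4.64 ± 1.27 came mostly from combined 1 and combined 2. It was 6.58 on the 4 arrays. Immunoglobulin genes are a family of near-identical copies, and their single values are uncertain for that reason.

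Klf4 (probe set 1417394_at), a zinc finger factor of epithelium and endothelium, read 11.98, 13.53 and 12.76 on the controls and 14.05, 14.32 and 14.12 on the combined arrays, a difference of 1.41 ± 0.36 and of 1.43 on the 4 arrays. The combined arrays lay within 0.3 of each other while the controls spread over more than 1.5. Klf15 (probe set 1448181_at), a glucocorticoid-induced regulator of amino acid and lipid metabolism, read 8.38, 9.53 and 10.27 against 11.27, 10.86 and 10.66, a difference of 1.53 ± 0.41. Gfpt2, which starts the hexosamine pathway, read 7.21, 7.24 and 8.38 against 9.25, 9.34 and 8.93 and differed by 1.56 ± 0.35. In Klf15 and Gfpt2 the array labelled control 3 was the highest control and combined 3 the lowest combined array, and without both the differences were 2.11 and 2.07. Mbd1 (probe set 1417968_a_at), a reader of methylated DNA, gave the lowest p. Its controls were 10.47, 10.63 and 10.50, its combined arrays 11.19, 11.52 and 11.09, and its difference 0.73 ± 0.16, or 0.80 on the 4 arrays. Of its other kept probe sets, 1437061_at had no overlap, at a difference of 0.32. In 1453678_at and 1430838_x_at control 3 lay above all combined arrays, at differences of 0.95 and 0.67. Tecpr2, which acts in autophagy, differed by 0.84 ± 0.22 and Tob2, an antiproliferative factor, by 0.60 ± 0.16. For all 10 the limma adjusted p was 0.995.

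The 10 genes of lowest p among those lower on every combined array had Csnk2a1 first. Csnk2a1, the catalytic subunit of casein kinase 2, read 10.05, 10.02 and 9.96 on the controls and 9.16, 9.26 and 9.34 on the combined arrays. Its difference was -0.76 ± 0.17, or -0.82 without control 3 and combined 3, and the gap between the groups was wider than the range within either. Sox4 (probe set 1433575_at), a transcription factor of progenitor cells and early lymphocytes, read 14.00, 13.25 and 13.11 against 12.06, 12.13 and 12.99, a difference of -1.06 ± 0.28. Its control 3 and combined 3 values nearly met, and without both the difference was -1.54. Taf7, a subunit of the general transcription factor TFIID, differed by -1.05 ± 0.27 and Pspc1, a protein of nuclear paraspeckles, by -0.82 ± 0.23. Gemin8, a member of the SMN complex that assembles splicing particles, differed by -1.13 ± 0.31. The others were Rab19, a small GTPase gene, at -0.99 ± 0.27, the zinc finger gene Zfp157 at -1.15 ± 0.32, the MAP kinase phosphatase gene Dusp4 at -0.58 ± 0.16, and the uncharacterised genes A830010M20Rik at -1.87 ± 0.49 and Cep83os at -0.94 ± 0.25. Each had a limma adjusted p of 0.995, as did the 10 higher genes.

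**Figure D2:**
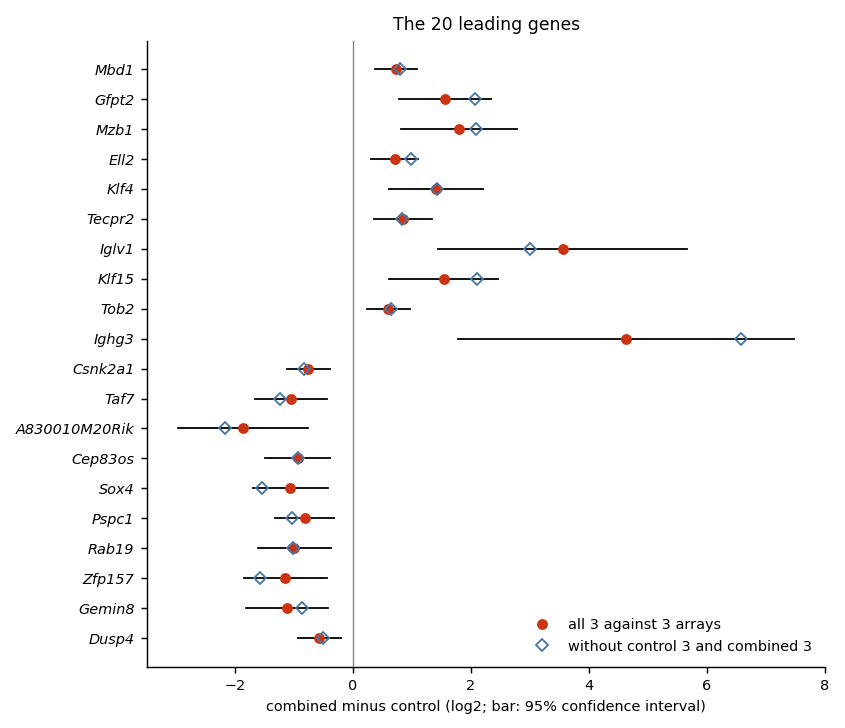
Difference of the combined from the control group (log2, horizontal axis) for the 20 genes of lowest p whose groups do not overlap, 10 higher and 10 lower. Filled points use all 6 arrays with a bar for the 95% confidence interval, and open diamonds leave out control 3 and combined 3. The diamonds keep the sign of the points for all 20 genes.

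The same 20 genes were read in the single treatments, which share these control arrays. They were chosen in part because every control array lay on 1 side, so a like sign was favoured from the start. The counts that follow are therefore no evidence that the treatments act alike, and the share over all genes was not counted. Of the 10 higher genes, 8 were also above 0 in radiation minus control and 10 in simvastatin minus control. Tob2 and Mzb1 were the exceptions, at -0.09 and -0.23 for radiation against 0.60 and 1.79 for the combined group. Of the 10 lower genes, 9 were below 0 in radiation minus control, where Dusp4 was at 0.03, and 10 in simvastatin minus control. Dusp4 read 8.97, 8.69 and 8.78 on the radiation arrays and 8.19, 8.30 and 8.15 on the combined arrays. The difference between treatments was tested directly: by limma 0 genes passed for combined minus radiation (518 at an unadjusted p under 0.05, lowest adjusted p 0.835), 0 for combined minus simvastatin (153, lowest adjusted p 1) and 0 for the interaction of both treatments (377, lowest adjusted p 0.882).

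The promoters of 3 leading transcription factor genes are shown because they hold matches to a pair of searched motifs, given in capitals. The motifs were CCAAT, which the general factor NF-Y binds, and CACGTG, an E-box bound by clock and growth factors of the bHLH class. Both strands were searched in the 250 bases before the transcription start, and the sequences are from RefSeq, build GRCm38.p6. Klf4 lies on the minus strand at chr4:55532476-55532725, Klf15 on the plus strand at chr6:90462326-90462575, and Sox4 on the minus strand at chr13:28953700-28953949.
Klf4: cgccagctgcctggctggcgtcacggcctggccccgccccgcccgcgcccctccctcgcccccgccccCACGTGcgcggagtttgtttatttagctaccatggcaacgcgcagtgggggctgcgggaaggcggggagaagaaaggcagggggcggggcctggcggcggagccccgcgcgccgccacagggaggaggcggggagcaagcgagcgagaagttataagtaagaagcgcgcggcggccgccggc
Klf15: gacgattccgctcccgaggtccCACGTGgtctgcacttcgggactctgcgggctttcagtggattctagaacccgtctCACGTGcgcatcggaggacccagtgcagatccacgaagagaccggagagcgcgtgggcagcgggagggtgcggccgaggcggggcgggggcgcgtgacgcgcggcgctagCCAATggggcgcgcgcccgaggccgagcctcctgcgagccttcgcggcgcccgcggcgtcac
Sox4: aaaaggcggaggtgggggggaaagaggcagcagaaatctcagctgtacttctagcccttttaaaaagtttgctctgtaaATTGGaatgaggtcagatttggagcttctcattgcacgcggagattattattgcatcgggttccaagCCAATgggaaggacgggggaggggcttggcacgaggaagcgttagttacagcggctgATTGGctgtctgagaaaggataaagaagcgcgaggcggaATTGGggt
Klf4 holds 1 CACGTG, Klf15 holds 2 and 1 CCAAT, and Sox4 holds 4 CCAAT on either strand. RefSeq promoters were found for 13 of the 20 leading genes, of which 7 held CCAAT and 2 held CACGTG. Over 32851 promoters of the same length the shares were 33.8% and 6.0%. A match describes letters and says nothing on binding in these lungs.

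Sterol genes were read as an indirect sign of a statin, through the SREBP2 response to a lack of sterol. The action of the drug in these lungs was not itself measured by the arrays. Of 29 listed genes of cholesterol synthesis and its control, 24 were measured, 5 of them higher and 19 lower in the combined group. Their median difference was -0.12, beside 0.004 over all genes, and 0 of the 24 lay wholly on one side of the controls. Hmgcs1, which makes HMG-CoA and is a classical SREBP2 target, read 12.91, 13.12 and 13.27 on the controls and 12.81, 13.14 and 13.03 on the combined arrays. The groups overlapped, with a difference of -0.10 ± 0.14. The largest values in either direction were Pmvk, a kinase of the mevalonate pathway, at 0.94 ± 0.41, and Fdps, the farnesyl diphosphate synthase gene, at -0.84 ± 0.60. Insig1, the sterol-sensing retention protein, was at -0.18 ± 0.23, the carrier gene Stard4 at -0.63 ± 0.28 and squalene epoxidase, Sqle, at -0.12 ± 0.27. Without control 3 and combined 3 the median was -0.04 and 9 of 24 were above 0. The genes of HMG-CoA reductase and the LDL receptor were not among the genes tested.

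The Hmgcs1 promoter is shown because it carries the sequences through which sterol control is known to act. It lies on the plus strand at chr13:119690101-119690350 (GRCm38.p6, RefSeq), and capitals mark CCAAT and CACCCCAC, the core of the sterol regulatory element known from the LDL receptor gene, on either strand.
Hmgcs1: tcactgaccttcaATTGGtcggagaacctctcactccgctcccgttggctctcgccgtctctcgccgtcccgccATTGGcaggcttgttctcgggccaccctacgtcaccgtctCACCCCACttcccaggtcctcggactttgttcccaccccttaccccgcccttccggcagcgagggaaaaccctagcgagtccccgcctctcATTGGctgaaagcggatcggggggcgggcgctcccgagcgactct
It holds 3 CCAAT, all on the minus strand, and 1 CACCCCAC. CACCCCAC stood in 2.6% of all promoters of this length and in 0 of the 13 leading genes with a promoter.

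The p53 target genes were split by the arrays whose labels go against Cdkn1a. Of 30 listed, 26 were measured and 19 were higher in the combined group, with a median of 0.30. Fas, the death receptor gene, was the only one of the 26 whose groups did not overlap, beside 2.67% of all genes above every control. It read 9.88, 10.07 and 9.39 on the controls and 10.47, 10.42 and 10.19 on the combined arrays, a difference of 0.58 ± 0.22. Phlda3, which restrains the kinase AKT, read 9.02, 8.82 and 11.23 against 10.96, 11.01 and 8.97, and Ccng1, cyclin G1, read 12.67, 12.02 and 13.62 against 13.65, 13.54 and 12.28. In both, control 3 was at the level of combined 1 and combined 2 and combined 3 at that of the other controls. Their differences were 0.62 ± 0.74 and 0.38 ± 0.53 over 6 arrays and 2.06 and 1.25 without those arrays, where 21 of 26 members were above 0 and the median was 0.62. Mdm2, the p53 feedback inhibitor, was at -0.21 ± 0.33 and 0.25 on these sets, and the antiproliferative gene Btg2 at -0.47 ± 0.40 and -1.09. The probe sets of Mdm2 disagreed over 6 arrays, since its other kept probe set, 1423605_a_at, differed by 0.26. The list level, a mean of the members' deviations from the mean of 12 arrays, was -0.58, -0.57 and 0.36 on the controls and 0.31, 0.28 and -0.55 on the combined arrays.

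Immunoglobulin and B cell genes were higher on the combined arrays as a group. Of 18 listed B and plasma cell markers 16 were measured, and 16 were above 0, beside 50.5% of all genes. In 5 of them every combined array lay above every control array: Jchain, Ighm, Igha, Mzb1 and Blnk, against 2.67% of all genes. Jchain, which links IgM and IgA into polymers, read 11.97, 7.95 and 9.81 on the controls and 13.86, 13.33 and 12.48 on the combined arrays, a difference of 3.31 ± 1.05. Igha, the IgA heavy chain gene, read 11.95, 10.11 and 10.96 against 14.43, 12.51 and 12.66 and differed by 2.20 ± 0.66. Other members were nearer to 0. The receptor chain genes Cd79a and Cd79b were at 0.40 ± 0.40 and 0.05 ± 0.42, Ms4a1, which encodes CD20, at 0.21 ± 0.51, and Fcer2a, which encodes CD23, at 0.04 ± 0.55. Xbp1, the secretory regulator that lung epithelium also makes, was at 0.07 ± 0.11. In bulk tissue a different number of cells and a different amount of RNA per cell cannot be told apart.

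The median of these 16 genes was 0.54. It ranged from 0.30 without combined 2 to 0.83 without control 2, and was 0.37 without control 3 and combined 3, where 12 of the 16 remained above 0. Ms4a1, Fcmr, Cd79b and Fcer2a were then at -0.10, -0.13, -0.25 and -0.45, while Mzb1, Jchain and Igha were at 2.09, 3.64 and 2.44. In radiation minus control the median was -0.56 and in simvastatin minus control 0.17, with the controls shared. The median of combined minus radiation was 1.15, in which Ighm stood at 2.83, Jchain at 2.61 and Mzb1 at 2.02. All had a limma adjusted p of 0.835 there.

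Probe sets of the immunoglobulin genes were also read one by one. Those kept were 21, from 11 gene symbols, and 21 were higher in the combined group, beside 50.9% of all kept probe sets, with a median of 3.02. In 14 of them all combined arrays lay above all controls, as they did in 3.03% of the 23469 kept probe sets. Ighm, the IgM heavy chain gene, had 7 kept probe sets that did not give the same picture. Probe set 1425247_a_at read 3.19, 2.95 and 3.09 on the controls and 11.49, 9.24 and 11.79 on the combined arrays, the widest gap of any kept probe set. It read 7.41, 3.25 and 4.77 on the radiation arrays and 11.75, 5.97 and 11.84 on the simvastatin arrays. The high readings were therefore those of the combined arrays and of simvastatin 1 and simvastatin 3, the pair that is near-identical to combined 3.

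Probe sets 1425324_x_at, 1427756_x_at and 1427870_x_at had the same order, with differences of 6.42, 4.71 and 4.37. In 1425385_a_at the order was another: controls read 5.88, 4.11 and 3.61, combined 1 and combined 2 read 11.96 and 11.07, and combined 3 read 6.65. Probe sets 1427329_a_at and 1427351_s_at, which stood high everywhere, differed by 2.10 and 2.09. The second of these represents Ighm in the list above and read 13.82, 11.08 and 12.08 on the controls and 14.89, 14.51 and 13.85 on the combined arrays.

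**Figure D3:**
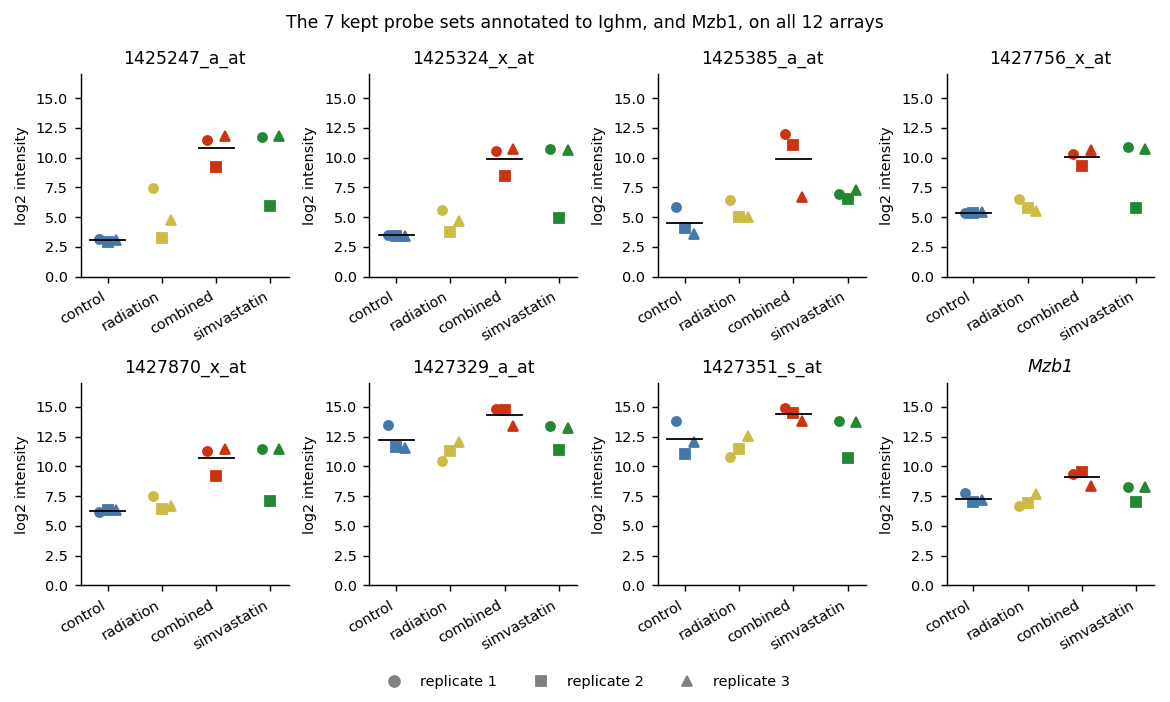
Log2 intensity on all 12 arrays, by group and replicate, of the 7 kept probe sets annotated to Ighm and of Mzb1, with a line at the mean of the control and of the combined arrays. In 4 of the panels the combined arrays stand with simvastatin 1 and simvastatin 3 well above all controls, and 1425385_a_at is high on combined 1 and combined 2 alone.

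Glucocorticoid-induced genes were the other list with many members above the controls. They are switched on by the receptor for stress steroids, and several also follow the daily rhythm of those steroids. Of 20 listed, 19 were measured, 18 were above 0 and the median was 0.95. In 7, Tsc22d3, Sgk1, Per1, Errfi1, Angptl4, Cebpd and Sult1a1, the combined arrays all lay above the controls, against 2.67% of all genes. Tsc22d3, which encodes the steroid-induced leucine zipper protein GILZ, read 10.29, 11.45 and 10.93 on the controls and 12.36, 12.15 and 11.50 on the combined arrays, a difference of 1.11 ± 0.34. Per1, a clock gene that steroids induce, read 7.055, 9.53 and 7.83 against 10.16, 9.92 and 10.18 and differed by 1.95 ± 0.58. Cebpd, a transcription factor of the acute phase, read 10.03, 11.89 and 11.87 against 13.27, 12.72 and 12.71, a difference of 1.64 ± 0.46. Errfi1, an inhibitor of the EGF receptor, differed by 1.12 ± 0.31. Control 1 held the lowest value in each of these 4 genes.

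Within the list the members did not share 1 order of arrays. Zbtb16, a zinc finger gene, read 6.26, 7.89 and 11.50 on the controls and 11.92, 10.22 and 7.21 on the combined arrays, so that control 3 and combined 3 changed places, as in Cdkn1a. Its difference was 1.23 ± 1.37, and 3.99 without them. Fkbp5, the steroid receptor co-chaperone, read 11.77, 7.81 and 9.83 against 11.65, 10.22 and 7.84 and differed by 0.10 ± 1.13. The metallothionein genes Mt1 and Mt2 were highest on combined 1 and differed by 1.0 ± 0.37 and 0.88 ± 0.64. Pik3r1, a subunit of PI3 kinase, was the 1 member below 0. The list median ranged from 0.66 without combined 1 to 1.36 without combined 3, and was 1.39 without control 3 and combined 3. It was 1.23 in radiation minus control and 0.64 in simvastatin minus control, which share the controls.

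**Figure D4:**
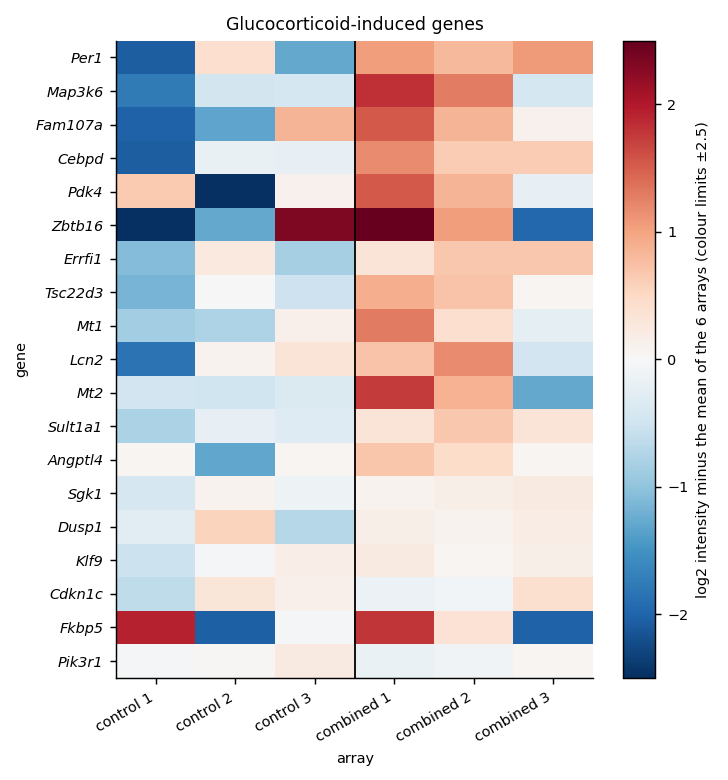
Log2 intensity of the 19 measured glucocorticoid-induced genes on the 3 control and 3 combined arrays (columns), each as its deviation from the gene's mean over the 6 arrays, with colour limits at ±2.5. The 3 combined columns are mostly warm and control 1 is mostly cold, while Zbtb16 and Fkbp5 are cold on combined 3.

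The circadian clock list shared Per1 with it. Of 18 listed clock genes 16 were measured, 11 above 0, with a median of 0.21. Per1 and Nfil3 lay above the controls throughout, beside 2.67% of all genes. The median was 0.01 without control 1 and 0.33 without control 3 and combined 3. Nfil3, a repressor of clock output genes, read 5.14, 6.10 and 6.49 against 8.05, 7.25 and 7.35, a difference of 1.64 ± 0.70. Per2 differed by 1.76 ± 0.73. Dbp, Cry1 and Arntl, which encode an output activator, a repressor and the core activator BMAL1, were at -0.38 ± 0.81, -0.51 ± 0.39 and -0.50 ± 0.81. The hour at which lungs were taken was not known here.

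Vascular genes listed as responsive to statins were divided in sign, and the list set no common direction for its members. Of 14 listed 13 were measured, 8 were above 0, and the median was 0.20. In 3 members, Klf4 and Nos3 among them, every combined array lay above the controls, against 2.67% of all genes. Nos3, endothelial nitric oxide synthase, read 7.14, 8.09 and 8.42 on the controls and 8.99, 8.84 and 8.94 on the combined arrays, a difference of 1.04 ± 0.40. Klf2, the flow-induced endothelial factor, read 11.32, 13.07 and 11.92 against 13.30, 13.07 and 13.50, so that control 2 lay at the level of the combined arrays, with a difference of 1.18 ± 0.45. Plat, tissue plasminogen activator, differed by 0.80 ± 0.33. The list median was -0.06 without control 1, 0.47 without control 3 and 0.49 without control 3 and combined 3.

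Endothelial markers stood beside these genes at a median of 0.10, with 10 of 18 above 0 and none apart from the controls. Cdh5, the cadherin of endothelial junctions, was at 0.26 ± 0.39 and Pecam1, which encodes CD31, at -0.05 ± 0.40. The level of this list was -0.91, 0.49 and -0.26 on the controls and -0.35, -0.04 and 0.15 on the combined arrays. Control 1 was thus the lowest array for Klf2, Nos3 and Klf4 and for the endothelial markers as a list, and the part of that level in the vascular values was not tested. The endothelial median was -0.25 without control 1, 0.49 without control 2, and -0.04 without control 3 and combined 3, where 8 of 18 were above 0.

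Among coagulation and fibrinolysis genes 13 of 18 were measured, 10 were above 0 and the median was 0.66. F3, tissue factor, which starts clotting, read 10.75, 10.96 and 11.26 on the controls and 11.66, 11.88 and 11.48 on the combined arrays, with no overlap and a difference of 0.68 ± 0.20. It was 1.08 in radiation minus control and 0.33 in simvastatin minus control. F3 was the 1 member of 13 free of overlap, beside 2.67% of all genes. Vwf, von Willebrand factor, differed by 0.80 ± 0.29 and the receptor gene Procr by 0.66 ± 0.41. Thrombomodulin, Thbd, was at 0.17 ± 0.20. The list median was 0.27 without combined 1 and 0.29 without control 1. Without control 3 and combined 3 all 13 members were above 0 and it was 0.78.

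Sphingolipid genes, which make and sense the barrier lipid sphingosine 1-phosphate (S1P), were balanced around 0. Of 31 listed 30 were measured, 15 above 0, with a median of 0.004. Acer2 and Acer3, ceramidases that release sphingosine, lay above the controls on every combined array, 2 of 30 beside 2.67% of all genes. Acer2 read 9.97, 11.45 and 11.09 against 11.60, 11.59 and 11.98, a difference of 0.89 ± 0.35, and Acer3 differed by 0.52 ± 0.25. Smpd2, a neutral sphingomyelinase, was the only member below the controls throughout, at -0.31 ± 0.17, beside 3.87% of all genes. The kinase gene Sphk1 was at 0.68 ± 0.49, and the receptor genes S1pr1, S1pr2 and S1pr3 at 0.41 ± 0.64, -0.17 ± 0.45 and -0.30 ± 0.27. The sphingolipid median was -0.14 without control 1, 0.14 without control 2 and 0.09 without control 3 and combined 3, with 21 of 30 then above 0. Of the 8 integrin beta subunits 4 were above 0, with a median of 0.10. All 8 were above 0, with a median of 0.38, without control 3 and combined 3, while the median was -0.12 without control 1. Itgb4, which joins epithelium to its basement membrane, was at 0.78 ± 0.44.

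Genes of inflammation were mostly above 0 but spread widely between arrays. Of 22 listed cytokine and adhesion genes 18 were measured and 15 were above 0, with a median of 0.51. Tlr1, a receptor for bacterial lipoproteins, was the 1 member of 18 without overlap, beside 2.67% of all genes above every control. It read 7.22, 6.91 and 6.95 on the controls and 8.13, 7.90 and 7.52 on the combined arrays, a difference of 0.82 ± 0.23. Its radiation arrays read 6.57, 6.74 and 6.96 and its simvastatin arrays 7.67, 7.81 and 7.51. Saa3, an acute phase protein gene, read 7.41, 6.05 and 9.12 against 13.77, 8.31 and 6.92, so that combined 1 stood far above the other 5 arrays. Il1b, interleukin 1 beta, differed by 1.23 ± 1.11. The adhesion molecule genes Icam1 and Vcam1 were at 0.12 ± 0.32 and -0.17 ± 0.33. Leaving out control 1 or control 3 put the median at 0.16 or 0.82, and leaving out control 3 and combined 3 at 0.89. The genes Il6 and Tnf did not pass the filter on low values.

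Chemokine genes gave 12 of 14 above 0, of 21 listed, with a median of 0.47 and 0 members free of overlap. Cxcl13, which draws B cells, read 9.39, 5.45 and 8.10 on the controls and 10.66, 10.38 and 9.33 on the combined arrays, a difference of 2.48 ± 1.26. Only control 1 reached the lowest combined array. Ccl8, Cxcl9 and Ccl9, which draw monocytes and T cells, differed by 1.25 ± 1.20, 1.19 ± 1.41 and 1.05 ± 0.83 and were higher on combined 1 than on combined 2 or combined 3. The median was 0.16 without combined 1, 1.13 without combined 3 and 1.01 without control 3 and combined 3. Interferon-stimulated genes were at a median of -0.04, with 9 of 24 measured members of 28 above 0, and at 0.14 with 17 of 24 without control 3 and combined 3. Their median was -0.28 without combined 1 and 0.15 without combined 3. Ifit2, an antiviral gene, was the 1 member lower on every combined array, at -0.43 ± 0.23, beside 3.87% of all genes. Oas2 read 6.63, 6.79 and 7.88 against 10.56, 8.25 and 6.97. MHC class II genes, which present antigen, were at 0.03 over 8 of 9, with 5 above 0. Their median turned to -0.11, with 0 of 8 above 0, without control 3 and combined 3, and without control 3 alone it was -0.10.

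Macrophage markers were above 0 in 14 of 17 measured genes of 18, with a median of 0.28. It was 0.05 without combined 1, 0.10 without control 1 and 0.62 without control 3 and combined 3. Marco, a scavenger receptor of alveolar macrophages, read 5.62, 5.57 and 4.08 on the controls and 8.09, 6.54 and 7.36 on the combined arrays. The difference was 2.24 ± 1.15, and none of the controls reached the lowest combined array. Its values on the simvastatin arrays were 6.88, 2.29 and 6.80 and on the radiation arrays 4.07, 5.23 and 2.10. Mertk, the receptor for apoptotic cells, differed by 0.58 ± 0.30, and Siglecf, a marker of resident alveolar macrophages, was at -0.62 ± 0.54. Neutrophil markers were above 0 in 10 of 10 measured of 14, with a median of 1.30. S100a8 read 11.24, 12.32 and 14.47 against 14.78, 14.63 and 12.57, in the order of Cdkn1a. Camp and Ngp, granule genes of immature neutrophils, were highest on combined 2, at 9.46 and 11.80, and read 3.23 and 3.21 on combined 3. The neutrophil median was 0.60 without control 1, 2.23 without control 3 and 2.55 without control 3 and combined 3.

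Markers of ciliated airway cells were above 0 in 16 of 16 measured genes of 17, with a median of 0.97. Hydin, a protein of motile cilia, read 6.02, 7.20 and 7.93 on the controls and 8.25, 8.14 and 8.76 on the combined arrays, a difference of 1.34 ± 0.45, and Ccdc39, needed to assemble ciliary arms, differed by 0.95 ± 0.36. These 2 of the 16 did not overlap, beside 2.67% of all genes above every control. Foxj1, the master regulator of the cell type, read 6.92, 8.29 and 10.09 against 9.82, 9.21 and 10.01, with control 3 above all combined arrays. The list level was -2.07, -0.80 and 0.52 on the controls and 0.12, -0.20 and 0.69 on the combined arrays. Control 1 and control 2 were the lowest arrays, and control 3 lay above combined 1 and combined 2. The median was 0.38 without control 1, 1.57 without control 3 and 1.32 without control 3 and combined 3. Club and secretory airway markers were above 0 in 13 of 14 measured of 16, with a median of 0.34 that became 0.05 without combined 3. Alveolar type 2 and type 1 markers were at 0.02 and -0.02, over 15 of 16 and 14 of 14 measured genes.

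Nrf2 target genes, which detoxify and buffer oxidants, were above 0 in 16 of 20 measured of 25, with a median of 0.25. Catalase, Cat, alone lay above the controls throughout, at 0.25 ± 0.13, beside 2.67% of all genes. The Nrf2 median was -0.03 without control 1 and 0.56 without control 3 and combined 3, where 19 of 20 were above 0. Me1, the malic enzyme, read 10.79, 10.87 and 11.72 against 12.68, 12.57 and 11.07. Of 33 genes of extracellular matrix and fibrosis 29 were measured, 15 above 0, with a median of 0.01, and 0.09 without control 3 and combined 3. The fibrillar collagen genes Col1a1, Col1a2 and Col3a1 were at -0.01 ± 0.33, -0.14 ± 0.29 and -0.13 ± 0.32. Ccn2, a growth factor of fibrosis, read 12.14, 13.29 and 13.17 on the controls and 13.46, 13.74 and 13.41 on the combined arrays and differed by 0.67 ± 0.29. Amino acid stress genes were at 0.15 over 16 of 21. Cth, which makes cysteine, lay above the controls at 0.55 ± 0.26, as did Atf4, the stress transcription factor gene, at 0.37 ± 0.23. These 2 stood beside 2.67% of all genes.

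Immediate early and heat shock genes, a rapid response to stress and handling, were at a median of 0.25 with 15 of 20 measured of 21 above 0. The heat shock gene Hspa1a read 7.45, 9.25 and 7.40 on the controls and 11.26, 10.49 and 8.50 on the combined arrays, a difference of 2.05 ± 0.81. Atf3, a stress-induced factor, differed by 1.76 ± 0.76 and Fos by -0.29 ± 0.37.

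Several list medians turned with single arrays. Cell cycle genes were below 0 in all 21 measured genes of 27, with a median of -0.83. Cdk1, the kinase that starts mitosis, read 10.47, 5.90 and 4.83 on the controls and 6.92, 6.13 and 4.22 on the combined arrays, so that control 1 alone was high. Without control 1 the list median was 0.38, and without control 3 and combined 3 it was -0.89. T and NK cell markers were above 0 in 3 of 14 measured of 22, with a median of -0.77 that became 0.67 without control 1 and -1.13 without control 3 and combined 3. Cd3e, a chain of the T cell receptor complex, read 10.01, 4.88 and 4.87 against 6.45, 5.57 and 4.80. The thymocyte list had 2 measured members of 10, Bcl11b and Cd8b1. Cd8b1 stood at 12.74 on control 1, at 8.90 on combined 1 and between 3.01 and 5.62 on the other 4 arrays. The thymocyte level was 6.62 on control 1, 2.87 on combined 1 and at most 0.23 on the others. The level of these 2 genes was thus highest on the arrays that held the highest cell cycle and T cell levels. Cd8b1 is also listed among the T and NK markers. Of the 10 thymocyte genes 8 were on the array, and all of these but Bcl11b and Cd8b1 failed the filter on low values. A gene high only on control 1 and combined 1 of all arrays would fail that filter too. The presence of thymus tissue was therefore neither shown nor tested. The part of Bcl11b and Cd8b1 in the cell cycle and T cell results was not tested.

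Muscle, squamous and fat genes set further arrays apart. Acta1, skeletal muscle actin, read 14.35, 14.26 and 13.06 on the controls and 14.90, 14.61 and 4.90 on the combined arrays. The skeletal muscle list was therefore at -0.60 over 6 arrays and at 1.19 without combined 3, on 19 of 21 measured genes. Krt4, a keratin of squamous lining, read 15.19, 15.18 and 8.17 against 13.77, 15.50 and 2.77, and the squamous median went from -0.94 to 1.79 without combined 3. Ucp1, the uncoupling protein of brown fat, read 12.89, 2.20 and 12.28 against 12.58, 10.49 and 2.21. Adipose markers were above 0 in 14 of 14 measured of 17, with a median of 1.22 that became 0.08 without control 2, on which Retn, the adipokine resistin, read 4.25 against 11.01 and 8.82 on the other controls. Cardiac muscle markers were at 0.40 over 17 genes and at -0.22 without control 2. Xist, the RNA of the silenced X chromosome, read 14.54, 14.01 and 2.45 on the controls and 13.64 to 14.08 on the combined arrays, so that control 3 stood apart from the other 5. The Y-linked genes Eif2s3y and Kdm5d were high on control 3 alone of the 6 arrays, at 10.24 and 8.83 (probe sets 1417210_at and 1424903_at). They were at most 2.86 and 2.24 on the others. The array labelled control 3 thus read as male and the others as female, so sex was not balanced between the groups, and its part in the results was not tested.

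**Figure D5:**
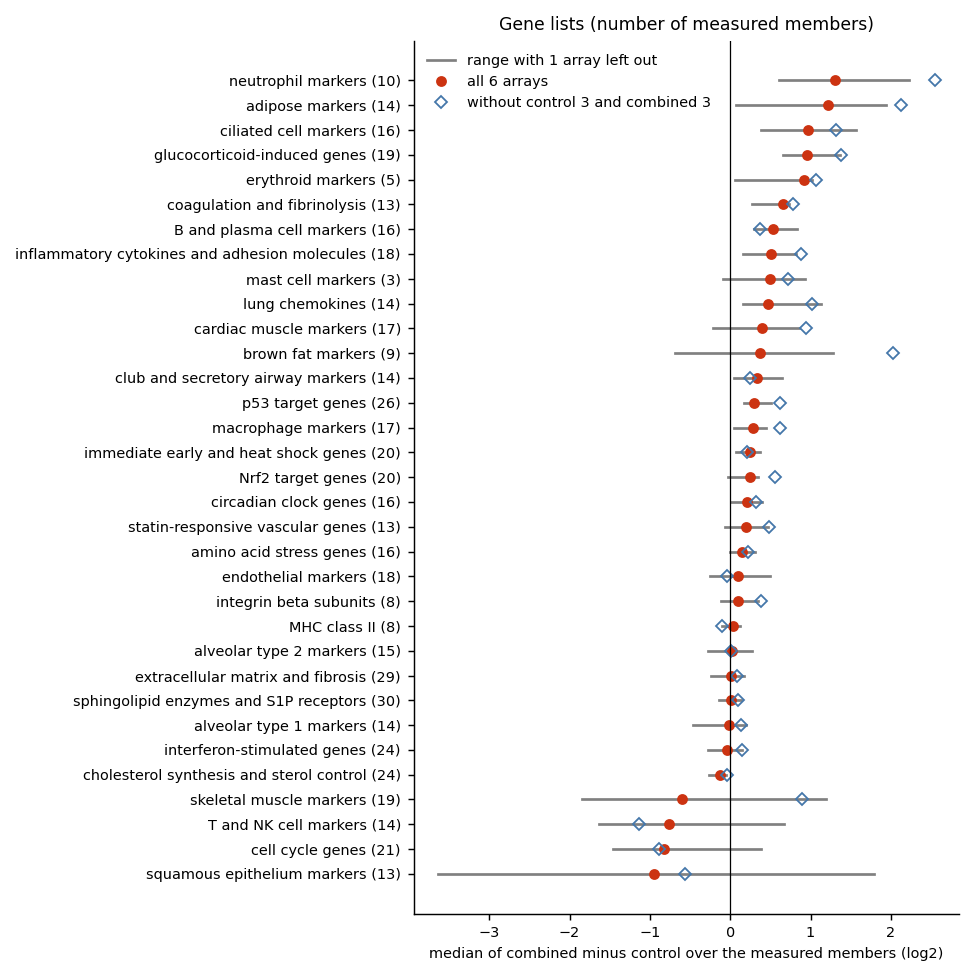
Median difference of the combined from the control group (log2, horizontal axis) over the measured members of each gene list with 3 or more of them, their number in brackets. Red points use all 6 arrays, grey lines show the range when 1 array is left out, and open diamonds leave out control 3 and combined 3. The grey lines of the skeletal muscle, squamous, T and NK cell, cell cycle, brown fat and cardiac lists cross 0, among others. Those of the glucocorticoid, ciliated, neutrophil and B cell lists do not. Nor do those of several further lists, the p53 and coagulation lists among them.

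The test over all genes was repeated without control 3 and combined 3. By limma 1 gene passed, Aoc1, which encodes diamine oxidase, and 1041 stood at an unadjusted p under 0.05. Aoc1 read 5.07, 4.60 and 9.19 on the controls and 8.02, 8.40 and 7.66 on the combined arrays, and 7.70 to 9.26 on the 6 arrays of the single treatments. Control 1 and control 2 were thus the only low arrays of 12. The difference was 1.74 over 6 arrays, with a limma adjusted p of 0.995, and 3.37 ± 0.28 on the 4 arrays, with a limma adjusted p of 0.0341. The arrays left out were chosen by p53 target genes and Aoc1 has a like order on the controls, so that p-value is no independent evidence. This gene was named after its values were seen.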

How the data were processed

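Total RNA from mouse lung was hybridised as biotin-labelled cRNA to Affymetrix arrays, 12 in the series and 6 in this comparison. The values are log2 intensities as deposited by the authors, and the submitters' processing notes name MAS5 and GCRMA, with no version or setting stated here. Such steps set how far low signals are pulled down, so differences among dim probe sets depend on them. Each array was placed in its group by its title. One description shared by all arrays calls the animal a control and was not used.

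After removal of 64 Affymetrix controls from 45101 rows, 34945 probe sets had 1 symbol in GEO's platform annotation, 932 had several and 9160 none, and 34741 matched RefSeq by Entrez identifier. Probe sets above log2 4.845 on 3 or more of the 12 arrays were kept, namely 20079 with 1 symbol and 11606 genes. A gene takes its probe set of highest mean. The fit of 4 groups to 11 samples used limma 3.58.1 and R 4.3.3, simvastatin 1 and simvastatin 3 being averaged, with 7 residual degrees of freedom, eBayes with a trend, two-sided p-values and Benjamini-Hochberg adjustment at 0.05. The script was tested on simulated data. Single quantities were compared by exact permutation. The number of arrays limits the precision.

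Named genes are the 10 of lowest p in each direction whose groups do not overlap, the 2 of lowest p in each list and check genes. Other list members and single probe sets were named after their values were seen. Members and 35 gene lists were chosen with earlier results of these data known. Same-numbered control and combined arrays deviated together from their group means, with correlations of 0.318, 0.287 and 0.408 over genes. Control 1 with combined 2, which are not same-numbered, gave 0.295. No label ties the numbers of the titles across groups, so pairing was not established. A fit with those numbers as a block was an alternative. Other alternatives were the scaling, the filter, a floor, probe set choice, the variance model, array weights, the samples in the fit and leaving out arrays. Some members of the vascular list are not reported here by name.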

Additional observations from a re-analysis of the deposited data

Results flagged for a closer look

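Of the kept probe sets, 3390 had no single gene symbol and entered no gene test. The 3 of them with the widest gap between the lowest combined and the highest control array are given because the gene comparison did not use them. Probe set 1451963_at, which has no gene annotation, had a gap of 1.95. It passed the filter only through the combined arrays and simvastatin 1 and simvastatin 3, so its gap is no support for a difference. It read 3.56, 2.37 and 2.18 on the controls and 6.09, 6.91 and 5.50 on the combined arrays, with 6.25, 3.13 and 5.70 on the simvastatin arrays and 2.24 to 3.56 on the radiation arrays. Probe set 1424931_s_at, annotated to both Iglc1 and Iglv1, lambda light chain genes of antibodies, had a gap of 1.21. It read 9.39, 6.67 and 6.14 on the controls and 11.22, 11.95 and 10.60 on the combined arrays. Probe set 1438186_at, also without a gene, had a gap of 0.89, with 8.17, 8.54 and 8.37 on the controls and 9.86, 9.42 and 10.72 on the combined arrays. In the fit over all kept probe sets each had a limma adjusted p of 0.986. No search for single outlying arrays by Dixon's test was run on these groups of 3 arrays.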

How the results depend on the processing

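The number of genes past the limma threshold was 0 in the main setting and with the other scalings, without the filter, with a floor, with the mean over probe sets, without the variance trend and with other samples in the fit. It was 43 with array weights (2657 at an unadjusted p under 0.05), which gave control 1 a weight of 0.159, control 3 0.298 and control 2 3.52, so that the control mean leaned on 1 array. It was 1 without control 3, 1 without control 3 and combined 3, and 0 to 1 over the fits that leave out 1 array. With the replicate number as a block over 12 arrays it was 0, with 514 genes at an unadjusted p under 0.05 and a lowest limma adjusted p of 0.912. Over the 6 arrays, a setting chosen after seeing the data, it was 0 with 248. Such a block therefore changed no call, although the numbers are not known to pair the arrays. Testing every kept probe set, also chosen after seeing the data, gave 0 of 23469 with 638 at an unadjusted p under 0.05. The Cdkn1a difference lay between 0.66 and 2.05 with 1 array left out. It was 2.71 without control 3 and combined 3, which were singled out by this gene, so that value says nothing about stability.

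Some named genes reversed, and the cause was not tested. With array weights Sox17 was at -0.44, H2-Oa at 0.023, H2-Ob at -0.33, Bcl11b at 0.80 and Cd8b1 at 1.55. Without control 3 and combined 3, Itgb6 was at 0.23, Sox17 at -0.037, H2-Ob at -0.25, Acta1 at 0.45, Tnnc2 at 0.47 and Xist at -0.42. Leaving out 1 array put Itgb6 between -1.17 and 0.30, H2-Oa between -0.88 and 0.11, H2-Ob between -0.0088 and 0.93, and Cd2 between -1.42 and 0.19. It put Bcl11b between -2.04 and 0.88, Cd8b1 between -3.0 and 1.85, with 0.35 without combined 3, Tnnt2 between -0.029 and 1.20, and Acta1 between -4.14 and 0.87. Tnnc2 lay between -4.97 and 1.0, Fabp3 between -0.25 and 1.12, Hdc between -0.084 and 1.10, and Xist between -0.40 and 5.65. The 20 leading genes kept their sign in all settings tried. With 3 arrays a group and a median SE of 0.282, smaller differences could not be resolved.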

Other observations

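Among kept probe sets that lay below every control on all 3 combined arrays, the genes named here were picked after their values were seen, for wide gaps. The share of all kept probe sets below every control was not counted. Over the genes tested it was 3.87%. Utrn, the dystrophin relative utrophin, read 7.26, 7.39 and 7.74 on the controls and 5.73, 4.58 and 5.4 on the combined arrays in probe set 1426892_at. Sp4, a zinc finger factor, read 8.10, 7.5 and 7.29 against 6.32, 5.12 and 6.07 in probe set 1421504_at. Neither of these probe sets represents its gene in the test over genes, where another of higher mean does. Atrx, a chromatin remodeller, had 7 kept probe sets that disagreed. In 1420946_at it read 10.03, 9.43 and 9.53 on the controls and 8.45, 8.05 and 8.61 on the combined arrays, a difference of -1.29, and 1450051_at and 1420947_at differed by -1.55 and -1.20. In 1433537_at, which represents the gene, and in 1453734_at the differences were -0.03 and 0.01. The gene-level value of Atrx therefore depends on the probe set that represents it.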
